A study of Homo sapiens with 8 samples.

Results

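The DUSP MAP kinase phosphatases are a family of 10 protein-coding genes (DUSP1, DUSP2, DUSP4, DUSP5, DUSP6, DUSP7, DUSP8, DUSP9, DUSP10 and DUSP16), chosen by name and found as 10 of the 58735 genes in the deposited expression table. They were followed in cultured human hepatic cells through 3 groups, 8 libraries in all. HepaRG plate (3 libraries) is the wild-type HepaRG line, a human liver progenitor line, in flask culture. M14A plate (3 libraries) is gene-edited HepaRG, labelled as transfected with FoxM1 and HNF4A, in the same planar culture. M14A printed (2 libraries) is the same edited line mixed into a bioink named GP, printed, and taken 4 h later. Printed constructs were snap-frozen and ground, whereas flask cells were detached and spun down, so printing and the way of harvest cannot be told apart. The labels do not say whether M14A is 1 clone, nor whether replicates came from separate cultures, so every p-value measures the spread between these samples only, which may be technical.

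MAP kinases (ERK, JNK and p38) pass growth factor, cytokine and stress signals to the nucleus once phosphorylated on a threonine and a tyrosine of their activation loop. The dual-specificity phosphatases of this family remove both phosphates and so switch the kinases off. Many of the genes are themselves switched on by the pathway they restrain, which makes them a negative feedback. In liver cells the pathway serves the response to hepatocyte growth factor and EGF family ligands, regeneration, and the acute stress response. The family has 3 branches: nuclear and inducible enzymes (DUSP1, DUSP2, DUSP4, DUSP5), cytoplasmic enzymes that prefer ERK (DUSP6, DUSP7, DUSP9), and enzymes that prefer JNK and p38 (DUSP8, DUSP10, DUSP16).

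Expression is given as FPKM, a fragment count divided by gene length and by a library-wide scale, so levels can be compared between genes. Differences between libraries depend on that scale. The FPKM of all genes summed to 254141 to 266419 in HepaRG plate and 272290 to 350931 in M14A plate. In the printed libraries they summed to 514152 and 499995, so other scalings are given below. The 8 libraries held 15632154 to 19148262 reads, as recovered from the values. M14A plate library 1 stood apart: its Pearson correlations with libraries 2 and 3 of its group, across genes, were 0.957 and 0.948, against 0.988 between those. For the genes of the genotype label, HNF4A ranged from 5.67 to 6.50 FPKM in the parental flasks, from 37.9 to 43.1 in the edited flasks and from 13.6 to 17.1 after printing. FOXM1 ranged from 12.9 to 14.9 FPKM in the parental flasks and from 8.92 to 13.0 in the edited flasks, and was 10.1 in both printed libraries, so it was not clearly higher in the libraries labelled as transfected. Of 8 hepatocyte markers, 5 reached 1 FPKM in every HepaRG plate library and 6 in every M14A plate and every printed library, with TTR and TF below 1 FPKM in all 8 libraries. SERPINA1 was the most abundant of them in every M14A library, at 262 to 459 FPKM in the edited flasks and 480 and 438 after printing. Between edited flasks and printed cells HNF4A fell, ALB, APOA1 and FGB rose, and SERPINA1 and APOB overlapped. The summed level of the 8 markers ranged from 29.8 to 32.5 FPKM in the parental flasks, from 539 to 644 in the edited flasks and from 784 to 801 after printing. That of 6 biliary and progenitor markers ranged from 98.4 to 101.8 FPKM, from 26.0 to 61.1 and from 46.4 to 49.96 in the same order, with EPCAM at 0 in every M14A library and SPP1 at 51.9 to 53.0 FPKM in the parental flasks, 7.95 to 10.5 in the edited flasks and 12.6 to 13.9 after printing. EPCAM was at or below 0.253 FPKM in the parental flasks too. SOX9 was lower in every M14A library than in every HepaRG library and KRT19 overlapped. KRT7 went the other way, from 0.455 to 0.468 FPKM in the parental flasks to 1.82 to 6.66 in the M14A libraries. The part of the hepatocyte and biliary lists in the results below was not tested. The summed level of 5 endothelial markers was 1.01 to 1.22 FPKM in the parental flasks, 1.65 to 2.35 in the edited flasks and 1.58 to 1.98 after printing. CDH5 was at 0 throughout and KDR was higher in every M14A library than in every HepaRG library. The sum of 5 leukocyte markers was 2.26 to 2.89, 6.60 to 10.6 and 9.94 to 11.8 FPKM in the same order. CD14 and LAPTM5 were higher in every M14A library, and PTPRC was at or below 0.0208 FPKM throughout. The part of these lists was not tested. The summed level of 6 stellate cell and fibroblast markers ranged from 19.6 to 21.3 FPKM in the parental flasks, from 40.6 to 68.8 in the edited flasks and from 84.3 to 92.7 after printing, with no marker at 0. Within that list PDGFRB, COL1A1 and RGS5 were lower in every M14A library than in every HepaRG library, and LUM overlapped. ACTA2 and DCN were higher in every M14A library, ACTA2 at 1.26 to 1.68 FPKM in HepaRG plate and 9.91 to 13.8 in M14A plate. The part of this list in the results below was not tested. These are bulk samples, in which fewer cells of a type and less RNA per cell cannot be told apart.

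All 10 genes were detected in every library, but at very unequal levels. DUSP1 (ENSG00000120129, chromosome 5, 172768090 to 172771195 on the minus strand of GRCh38), the classical stress- and growth factor-induced nuclear phosphatase, was the most abundant of the 10 in each group. In HepaRG plate it was followed by DUSP9, DUSP10 and DUSP5, at means of 19.3, 14.2 and 8.73 FPKM, with no overlap between neighbours in this order. DUSP7, DUSP8 and DUSP16 came next at 3.66, 3.42 and 3.36 FPKM, and their ranges overlapped. DUSP4, DUSP2 and DUSP6 closed the order at 2.56, 1.26 and 0.185 FPKM, each apart from the next. In M14A plate the order below DUSP1 was DUSP9, DUSP5, DUSP16, DUSP10, DUSP8, DUSP7, DUSP2, DUSP6 and DUSP4, and neighbours overlapped in 6 of the 8 steps from DUSP9 on. DUSP10 thus stood above DUSP16 in HepaRG plate and below it in M14A plate, with no overlap between these genes in either group. In printed cells the order below DUSP1 was DUSP9, DUSP5, DUSP10, DUSP16, DUSP2, DUSP7, DUSP6, DUSP8 and DUSP4.

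**Figure D1:**
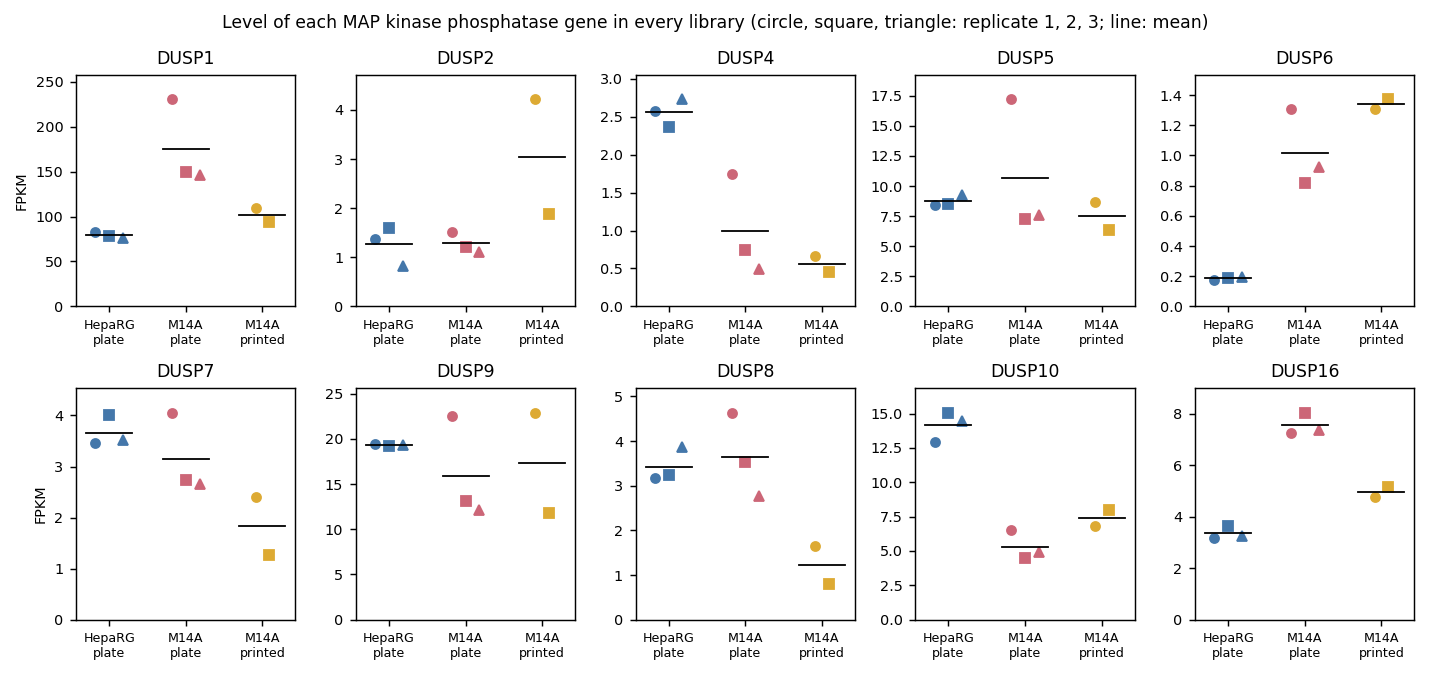
FPKM of each of the 10 genes (vertical axis, from 0, own scale for each gene) in the 3 groups (horizontal axis). Each symbol is 1 library, with its shape giving the replicate number, and the line is the group mean. DUSP1, DUSP6 and DUSP16 are higher and DUSP4 and DUSP10 lower in every M14A plate library than in every HepaRG plate library.

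Promoter sequences are shown for DUSP1, DUSP8 and DUSP16, the genes that passed the test as lower in printed cells, to show which of them carry a cyclic AMP response element, the binding site of CREB and ATF family factors. Each is the 250 bases before the gene's start, 5′ to 3′ on the gene's own strand, from RefSeq on GRCh38.p14 (chr5:172771196-172771445, chr11:1572272-1572521 and chr12:12562864-12563113, all on the minus strand). Capitals mark every match to TGACGTCA or to its core TGACG on either strand.
DUSP1 promoter: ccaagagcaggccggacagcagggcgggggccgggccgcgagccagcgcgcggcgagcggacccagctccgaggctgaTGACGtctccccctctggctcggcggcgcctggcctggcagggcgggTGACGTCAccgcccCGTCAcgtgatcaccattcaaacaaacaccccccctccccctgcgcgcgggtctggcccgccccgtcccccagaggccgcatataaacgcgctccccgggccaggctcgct
DUSP8 promoter: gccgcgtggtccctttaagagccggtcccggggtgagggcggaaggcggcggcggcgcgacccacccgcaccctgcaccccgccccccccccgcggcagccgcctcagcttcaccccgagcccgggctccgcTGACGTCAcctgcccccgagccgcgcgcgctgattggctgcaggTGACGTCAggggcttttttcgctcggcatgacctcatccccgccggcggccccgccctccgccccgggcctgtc
DUSP16 promoter: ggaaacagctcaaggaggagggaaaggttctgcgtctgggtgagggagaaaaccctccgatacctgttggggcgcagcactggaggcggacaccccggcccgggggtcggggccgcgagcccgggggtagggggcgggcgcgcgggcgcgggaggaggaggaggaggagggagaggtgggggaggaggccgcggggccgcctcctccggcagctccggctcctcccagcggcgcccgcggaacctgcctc
The DUSP1 window holds 1 full element, 125 to 118 bases before the start, and 2 further cores, while the DUSP8 window holds 2 full elements, 118 to 111 and 74 to 67 bases before the start. The DUSP16 window holds neither motif. RefSeq promoters were given for 8 of the 10 genes (not DUSP4 or DUSP5), and only those of DUSP1 and DUSP8 held the full element or its core, against 1.65% and 21.2% of all 35116 promoters of this length in the table. None of the 8 genes held an AP-1 site (TGANTCA, in 6.57% of all promoters), an ETS core (CCGGAA, 14.5%) or a serum response element (1.16%), and all 8 held a loose NF-kappaB pattern, which 54.4% of all promoters hold. The RefSeq start of DUSP1 is also a GENCODE 29 start, but those of DUSP8 and DUSP16 lie 351 and 480 bases from the nearest one. A match is a stretch of letters, not a bound site.

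The first comparison sets the edited line against its parent in flask culture. DUSP1, DUSP6 and DUSP16 were higher in M14A plate and DUSP4 and DUSP10 lower, while DUSP2, DUSP5, DUSP7, DUSP8 and DUSP9 did not pass the test. Every branch of the family held both called and uncalled genes, and the nuclear branch and the JNK and p38 branch each had 1 gene called in each direction. A gene is called here at a Benjamini-Hochberg adjusted p below 0.05, by limma on log2(FPKM + 1), over the 14349 genes that reached 1 FPKM in 2 or more libraries. All 10 genes passed this filter. DUSP6 passed it only through the M14A libraries, where it was high. DUSP4 passed it only with the HepaRG plate libraries, where it was high. The calls of these genes therefore lean on the group that let them into the test. Of all genes tested, 30.9% were called in this comparison (16.1% higher and 14.7% lower), against 5 of the 10 here. The median log2 fold change was 0.04 over the 10 genes and -0.04 over all genes. The 2 groups did not overlap for 5 of the 10 genes, a share near the 53% of all genes tested.

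Among the nuclear enzymes, DUSP1 stood at 82.2, 78.3 and 76.4 FPKM in HepaRG plate libraries 1 to 3 and at 230.3, 149 and 146 FPKM in M14A plate libraries 1 to 3. All M14A plate libraries lay above all HepaRG plate libraries, and library 1 was the highest. The mean was 2.22-fold higher in M14A plate (79.0 ± 3.0 against 175 ± 47.9 FPKM, SD, n = 3 each; log2 change 1.11 with an SE of 0.19, adjusted p = 0.0024). Without M14A plate library 1 the log2 fold change was 0.89, with an adjusted p of 1.8e-04.

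DUSP4 (ENSG00000120875), a nuclear phosphatase of ERK, JNK and p38 that ERK signalling induces, stood at 2.58, 2.36 and 2.73 FPKM in HepaRG plate and at 1.74, 0.748 and 0.497 FPKM in M14A plate. The groups did not overlap, but M14A plate library 1 was the highest of its group, at 2.80 times the mean of libraries 2 and 3. The mean fell by 0.88 on the log2 scale (SE 0.21, adjusted p = 0.013). Leaving out HepaRG plate library 3 ended the call (-0.85, adjusted p = 0.051), and the difference was wider without M14A plate library 1 (-1.14).

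DUSP5 (ENSG00000138166), which is specific for ERK and is induced by serum, stood at 8.41, 8.52 and 9.26 FPKM in HepaRG plate and at 17.2, 7.25 and 7.62 FPKM in M14A plate. M14A plate library 1 lay above all HepaRG libraries, and libraries 2 and 3 below them. Its log2 fold change of 0.16 (95% interval -0.49 to 0.82, adjusted p = 0.69) became -0.21 without library 1. DUSP2 (ENSG00000158050), best known from activated lymphocytes, stood at 1.37, 1.60 and 0.816 FPKM in HepaRG plate and at 1.52, 1.22 and 1.10 FPKM in M14A plate, with overlapping groups (log2 fold change 0.02, 95% interval -0.50 to 0.54, adjusted p = 0.95).

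Among the cytoplasmic ERK phosphatases, DUSP6 (ENSG00000139318, chromosome 12, 89347232 to 89353271), a feedback inhibitor transcribed in response to ERK activity, had the largest proportional change of the 10 genes. It stood at 0.172, 0.188 and 0.196 FPKM in HepaRG plate, which are 15, 20 and 19 reads, and at 1.31, 0.818 and 0.921 FPKM in M14A plate, which are 97, 74 and 84 reads. The groups did not overlap, and the mean was 5.49-fold higher in M14A plate. The log2(FPKM + 1) scale compresses differences of weakly expressed genes, and on it the difference was 0.76 (SE 0.12, adjusted p = 0.0021), and with a pseudocount of 0.01 it was 2.37. The antisense gene AC024909.2 covers 40.5% of the exon sequence of DUSP6 with its own exons and was at 0 in 6 of the 8 libraries and at or below 0.0273 FPKM in the other 2. Without a stated strand setting, reads of these genes cannot be told apart.

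DUSP7 (ENSG00000164086), a close relative of DUSP6, stood at 3.46, 4.01 and 3.52 FPKM in HepaRG plate and at 4.06, 2.73 and 2.65 FPKM in M14A plate. DUSP9 (ENSG00000130829, on chromosome X), another ERK phosphatase, known from placenta, kidney and insulin-responsive tissues, stood at 19.5, 19.2 and 19.4 FPKM in HepaRG plate and at 22.5, 13.2 and 12.2 FPKM in M14A plate. For both genes M14A plate library 1 lay above the parental libraries and libraries 2 and 3 below them. Their log2 fold changes were -0.18 (95% interval -0.61 to 0.24) and -0.31 (-0.94 to 0.31), with adjusted p of 0.48 and 0.41. With each library's trend in GC content and length removed, DUSP9 passed as lower in M14A plate (log2 fold change -0.46, adjusted p = 0.024).

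Among the JNK and p38 phosphatases, DUSP10 (ENSG00000143507, chromosome 1, 221701424 to 221742176), also called MKP5, stood at 13.0, 15.1 and 14.5 FPKM in HepaRG plate and at 6.51, 4.50 and 4.93 FPKM in M14A plate. Every M14A plate library lay below every HepaRG plate library, and the mean was 2.67-fold lower (14.2 ± 1.09 against 5.31 ± 1.06 FPKM; log2 change -1.28 with an SE of 0.15, adjusted p = 3.0e-04). DUSP16 (ENSG00000111266, chromosome 12, 12474210 to 12562383), also called MKP7 and known to act on JNK, went the other way. It stood at 3.18, 3.63 and 3.27 FPKM in HepaRG plate and at 7.25, 8.05 and 7.37 FPKM in M14A plate, again without overlap. Its mean was 2.25-fold higher (3.36 ± 0.234 against 7.56 ± 0.433 FPKM; log2 change 0.97 with an SE of 0.11, adjusted p = 2.2e-04), and M14A plate library 1 did not stand apart for this gene.

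Because both genes are measured in the same library, their ratio does not depend on how libraries were scaled. DUSP10 over DUSP16 was 4.07, 4.16 and 4.43 in the parental flasks, 0.898, 0.559 and 0.670 in the edited flasks and 1.43 and 1.55 after printing. The 3 groups were fully separated by this ratio, with printed cells between the flask groups. Each gene already separated the 3 groups, in opposite orders, so this separation follows from their levels and is no further evidence. DUSP8 (ENSG00000184545), a neuronal and cardiac member of the branch, stood at 3.16, 3.23 and 3.86 FPKM in HepaRG plate and at 4.64, 3.53 and 2.77 FPKM in M14A plate, with overlapping groups (log2 fold change 0.06, 95% interval -0.38 to 0.49, adjusted p = 0.85).

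**Figure D2:**
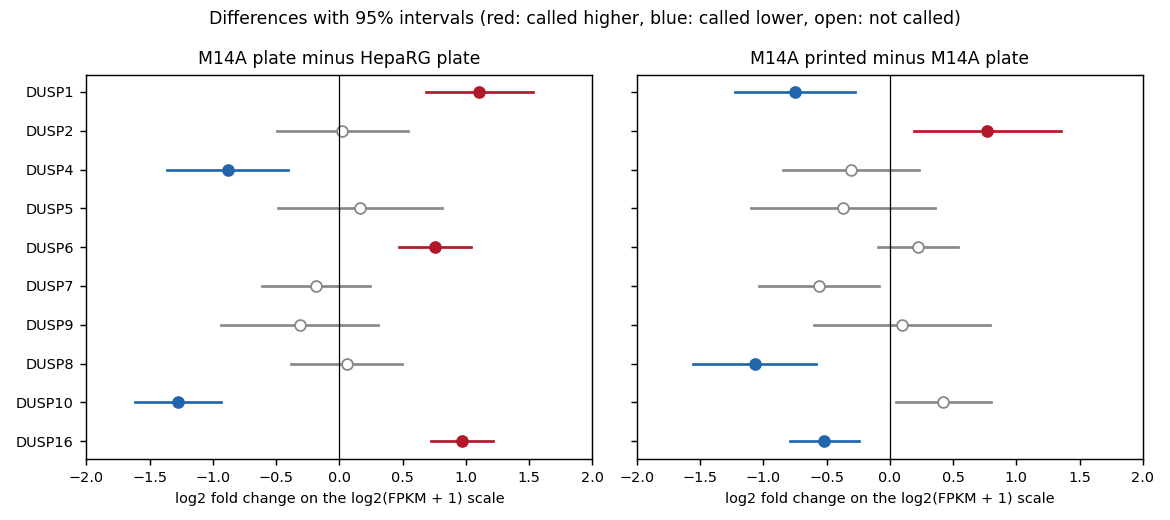
Log2 fold change of each of the 10 genes on the log2(FPKM + 1) scale (horizontal axis) with its 95% interval from limma, for M14A plate minus HepaRG plate (left) and M14A printed minus M14A plate (right). Filled points passed the adjusted p of 0.05: 5 genes on the left, from -1.28 for DUSP10 to 1.11 for DUSP1, and 4 on the right, from -1.07 for DUSP8 to 0.77 for DUSP2.

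The second comparison sets printed M14A cells against the same line in flasks. DUSP1, DUSP8 and DUSP16 were lower 4 h after printing and DUSP2 was higher, while DUSP4, DUSP5, DUSP6, DUSP7, DUSP9 and DUSP10 did not pass the test. No cytoplasmic ERK phosphatase was called, and in the JNK and p38 branch 2 of 3 genes fell. Of all genes tested, 33.2% were called in this comparison (17.7% higher and 15.5% lower), against 4 of the 10 here. The median log2 fold change was -0.34 over the 10 genes and 0.01 over all genes, and the groups did not overlap for 6 of the 10 genes, beside 51.3% of all genes. Both comparisons use the M14A plate libraries, so they are not independent of each other. Scaling the libraries to equal FPKM totals moved the median of all genes to -0.51, and leaving mitochondrially encoded genes out of those totals moved it to -0.39. Their share of reads was 8.21 to 9.72% in M14A plate and 13.3 and 16.4% in printed cells. At these scalings DUSP5 and DUSP7 passed as lower and DUSP2 did not pass, while DUSP1, DUSP8 and DUSP16 remained lower.

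DUSP1 stood at 109 and 94.1 FPKM in printed libraries 1 and 2, below all 3 M14A plate libraries (146 to 230.3 FPKM) and above all 3 HepaRG plate libraries (76.4 to 82.2 FPKM). Its mean was 1.72-fold lower than in M14A plate (102 ± 10.8 FPKM, n = 2; log2 change -0.75 with an SE of 0.21, adjusted p = 0.025). The call held without M14A plate library 1 (-0.54, adjusted p = 0.0025) and was lost without printed library 1 (-0.86, adjusted p = 0.070) or 2 (-0.64, adjusted p = 0.14), and when only the 2 groups entered the fit (adjusted p = 0.10).

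DUSP2 stood at 4.22 and 1.88 FPKM in the printed libraries, which are 109 and 59 reads, against 1.10 to 1.52 FPKM and 42 to 47 reads in M14A plate. Both printed libraries lay above all flask libraries, with library 1 at 2.24 times library 2. The mean was 2.38-fold higher (log2 change 0.77 with an SE of 0.25, adjusted p = 0.047). This call lay close to the threshold: it held under 7 of 22 alternative settings, and without printed library 1 the log2 fold change was 0.34 (adjusted p = 0.34).

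DUSP4 stood at 0.669 and 0.450 FPKM in printed cells, within or just below the M14A plate range and below every HepaRG plate library (log2 fold change against M14A plate -0.31, 95% interval -0.85 to 0.23, adjusted p = 0.34). DUSP5 stood at 8.71 and 6.34 FPKM, overlapping both flask groups (log2 fold change -0.37, 95% interval -1.09 to 0.36, adjusted p = 0.41). Without M14A plate library 1 the difference in DUSP5 was 0.0030.

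DUSP6 stood at 1.31 and 1.37 FPKM in printed cells, overlapping M14A plate and far above HepaRG plate (log2 fold change against M14A plate 0.22, 95% interval -0.10 to 0.54, adjusted p = 0.26). Without M14A plate library 1 it passed as higher (0.32, adjusted p = 0.036), and at equal FPKM totals its sign turned (-0.17). DUSP7 stood at 2.41 and 1.27 FPKM, below all flask libraries, without passing the test (log2 fold change -0.56, 95% interval -1.04 to -0.09, adjusted p = 0.069). Without printed library 1 it did pass (-0.85, adjusted p = 0.037). DUSP9 stood at 22.9 and 11.8 FPKM, the highest and the lowest of all 8 libraries (log2 fold change 0.10, 95% interval -0.60 to 0.79, adjusted p = 0.83).

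DUSP8 had the largest fall, to 1.65 and 0.802 FPKM, below every flask library of either line. The mean was 2.97-fold lower than in M14A plate (3.65 ± 0.937 against 1.23 ± 0.601 FPKM; log2 change -1.07 with an SE of 0.21, adjusted p = 0.0066), a call lost without printed library 2 (-0.79, adjusted p = 0.055). Its processed pseudogene DUSP8P5 on chromosome 10 stood at 2.55, 2.51 and 1.74 FPKM in M14A plate and at 0.576 and 0.544 FPKM in printed cells. Reads can be hard to assign between such copies, so the value of DUSP8 is uncertain by an amount that was not measured. DUSP5 has a pseudogene too, DUSP5P1, at 0.525 to 1.98 FPKM over all libraries.

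DUSP16 stood at 4.78 and 5.16 FPKM in printed cells, between M14A plate (7.25 to 8.05 FPKM) and HepaRG plate (3.18 to 3.63 FPKM) with no overlap with either. It was 1.52-fold lower than in M14A plate (log2 change -0.52 with an SE of 0.12, adjusted p = 0.012), a call lost without printed library 1 (-0.47, adjusted p = 0.074) and with only the 2 groups in the fit (adjusted p = 0.090). DUSP10 stood at 6.82 and 8.0 FPKM, above all M14A plate libraries and below all HepaRG plate libraries. Its log2 fold change of 0.42 (SE 0.17, 95% interval 0.05 to 0.80) did not pass (adjusted p = 0.081). Without M14A plate library 1 it passed at 0.55 (adjusted p = 0.0044), and at equal FPKM totals its sign turned (-0.23).

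Set beside HepaRG plate, the printed libraries did not overlap for 8 of the 10 genes (all but DUSP5 and DUSP9), as for 80.4% of all genes tested. DUSP1, DUSP2, DUSP6 and DUSP16 were higher and DUSP4, DUSP7, DUSP8 and DUSP10 lower in printed cells. DUSP1 and DUSP16 were 1.29- and 1.48-fold higher, and DUSP10 1.91-fold lower, by the ratio of mean FPKM. For DUSP1, DUSP10 and DUSP16 printed cells lay between the flask groups. This pair of groups differs in line, culture form and harvest and was not tested.

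DUSP1 made up most of the family's RNA per length in every library. Its share of the summed FPKM of the 10 genes ranged from 57.0 to 60.02% in the parental flasks and from 77.5 to 78.4% in the edited flasks and was 67.2 and 71.7% after printing, with no overlap between groups. M14A plate library 1, which had the highest DUSP1 level, had a share of 77.5%, like the other libraries of its group. The summed level was 136 ± 1.65 FPKM in the parental flasks, 225 ± 62.8 in the edited flasks and 147 ± 22.3 after printing. Without DUSP1 the sums were 56.7 ± 1.65, 49.6 ± 14.9 and 45.3 ± 11.6 FPKM. The range of the edited flasks (40.04 to 66.7 FPKM) overlapped both others, while the printed libraries (37.1 and 53.5 FPKM) lay below the parental flasks (54.8 to 57.8 FPKM). The share of DUSP10 went the other way, from 9.45 to 11.1% in the parental flasks to 2.19 to 2.66% in the edited flasks, with 4.19 and 6.10% after printing.

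**Figure D3:**
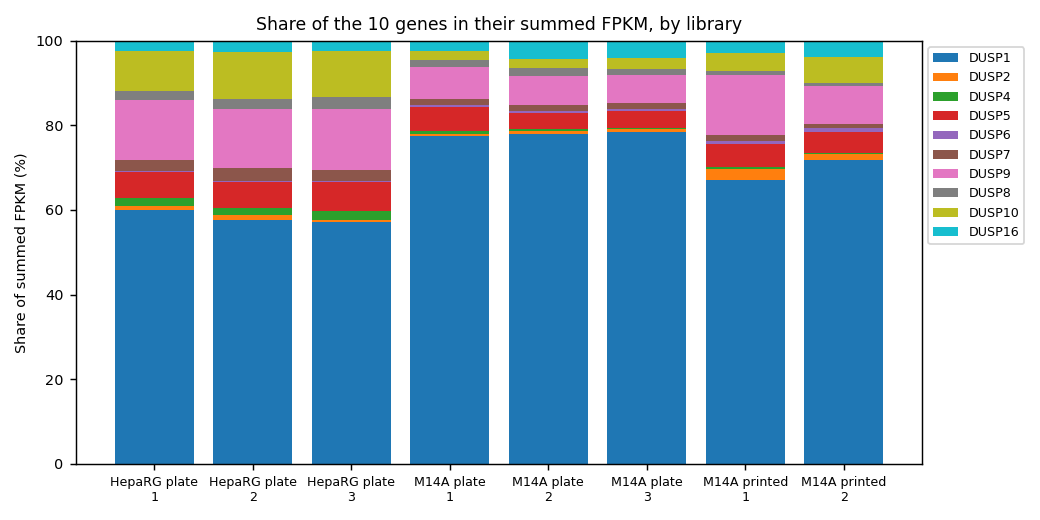
Share of each of the 10 genes in their summed FPKM (vertical axis, percent) for each of the 8 libraries (horizontal axis). The lowest segment, DUSP1, covers 57.0 to 60.02% for the parental line, 77.5 to 78.4% for the edited line in flasks and 67.2 and 71.7% after printing.

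The genes differ in base composition, and libraries of 1 group differed along it. The median GC content of their transcripts ran from 44.3% (DUSP16) and 46.7% (DUSP10) to 62.9% (DUSP2), 64.6% (DUSP8) and 65.6% (DUSP9), the last above 97.3% of all genes tested. Printed library 1 over printed library 2 was 0.926 for DUSP16, 0.853 for DUSP10 and 0.953 for DUSP6, and 1.90 to 2.24 for DUSP7, DUSP8, DUSP9 and DUSP2, the 4 genes richest in GC. Over all tested genes with reads in both printed libraries the median of this ratio was 0.852 below 45% GC and 1.73 at 65% GC or more. M14A plate library 1 over the mean of libraries 2 and 3 was 0.940 for DUSP16 and 1.31 to 2.80 for the other 9 genes, highest for DUSP4 and DUSP5. With the trend in GC content and length removed from each library, the printed comparison kept DUSP1 (-0.999), DUSP8 (-0.91) and DUSP16 (-0.48) as lower and DUSP2 (0.61) as higher, and DUSP7 passed as lower (-0.36) and DUSP6 as higher (0.26). In the comparison of lines the 5 calls also held, with log2 fold changes of 0.87 for DUSP1, 0.63 for DUSP6, 1.09 for DUSP16, -0.95 for DUSP4 and -1.35 for DUSP10. This setting was chosen after the data were seen.

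**Figure D4:**
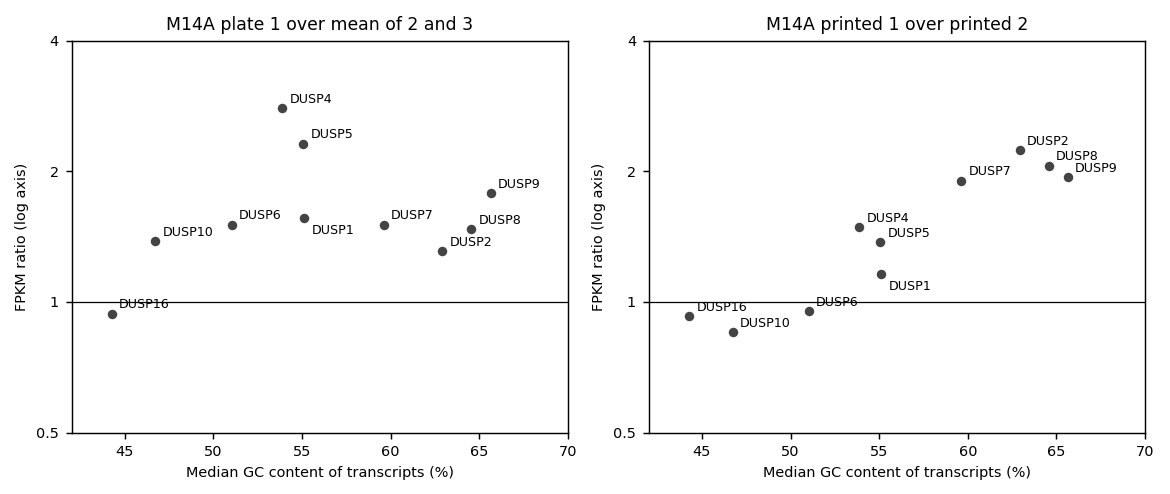
Ratio of FPKM between libraries of 1 group (vertical log axis) against the median GC content of a gene's transcripts in percent (horizontal axis), 1 point for each of the 10 genes. Left, M14A plate library 1 over the mean of libraries 2 and 3; right, printed library 1 over printed library 2, where the 4 genes richest in GC lie at 1.90 to 2.24.

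The rest of the pathway was read from lists fixed with earlier results of these data known, beginning with the signals that start it. Of the list genes named below, FGF21, FGFR1, MAPK13, ETV4 and PTPRR passed the filter only with the HepaRG plate libraries, where they were high. SPRY4 passed it only through the M14A libraries and FOSB only through the printed ones, where each was high. Counts between the lines are read beside the 30.9% of all genes called (16.1% higher and 14.7% lower). Of 10 tested growth factor ligands, 3 were higher and 4 lower in the edited line (list median log2 fold change -0.04). Amphiregulin (AREG), an EGF receptor ligand, rose from 2.41 ± 0.446 to 39.4 ± 10.6 FPKM (log2 change 3.55 with an SE of 0.19, adjusted p = 3.6e-06). TGFA, another ligand of that receptor, rose from 2.01 ± 0.0590 to 5.90 ± 1.36 FPKM, and the hepatokine FGF21 fell from 5.23 ± 0.723 to 0.0417 ± 0.00508 FPKM. Of the other tested EGF receptor ligands, EREG was called higher (log2 fold change 0.61), EGF lower (-0.89) and HBEGF was not called (0.34). Of 12 receptor tyrosine kinases, 5 were higher and 3 lower (median 0.60). EGFR stood at 5.84, 7.06 and 6.62 FPKM in HepaRG plate and at 26.4, 35.2 and 32.2 FPKM in M14A plate (log2 change 2.10 with an SE of 0.15, adjusted p = 2.0e-05). Its partner ERBB3 rose from 2.34 ± 0.102 to 8.88 ± 1.00 FPKM, while the fibroblast growth factor receptor FGFR1 fell from 4.26 ± 0.206 to 0.925 ± 0.308 FPKM.

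Between receptor and target, counts are read beside the 30.9% of all genes called. Of 14 RAS proteins and adaptors 2 were higher and 2 lower in M14A plate, of 17 MAP3 kinases and RAF kinases 1 and 4, and of 6 MAP2 kinases 0 and 0, by limma, with 2 higher without M14A plate library 1. Of 11 MAP kinases 1 was higher and 3 lower. The lower ones were 3 p38 isoforms, MAPK12 (5.85 ± 0.0876 to 2.00 ± 0.300 FPKM), MAPK11 (10.3 ± 0.274 to 5.59 ± 1.07) and MAPK13 (1.36 ± 0.0553 to 0.558 ± 0.121), and 29.3% of MAPK12 exon bases lie in another gene. The p38 isoform MAPK14 was not called (log2 fold change -0.058, adjusted p = 0.79 by limma). Of 9 MAP kinase-activated kinases 2 were higher and 0 lower, and of 9 JNK and p38 scaffolds and substrates 0 were higher and 3 lower, the last becoming 0 and 6 without M14A plate library 1. Leaving out that library raised the calls over all genes from 4429 to 6132 of 14349.

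Among targets, 5 of 15 ERK feedback inhibitors and output genes were higher and 1 lower in M14A plate (median 0.41), and 8 of 21 immediate early genes were higher and 2 lower (median 0.48). Of all genes tested, 16.1% were called higher and 14.7% lower. Sprouty 4 (SPRY4), an inhibitor of RAS activation made in response to ERK, stood at 0.510, 0.842 and 0.837 FPKM in HepaRG plate and at 9.41, 5.03 and 5.51 FPKM in M14A plate (log2 change 2.11 with an SE of 0.20, adjusted p = 1.0e-04). EPHA2 rose from 24.8 ± 0.944 to 62.9 ± 24.1 FPKM, the antiproliferative early gene BTG2 from 5.15 ± 0.166 to 34.8 ± 10.2 FPKM and the zinc finger factor EGR1 from 3.67 ± 0.268 to 20.8 ± 9.41 FPKM. In all 4 genes M14A plate library 1 was the highest of the 8 libraries. Without it the first list had 8 higher and 2 lower (median 0.30) and the second 9 higher and 5 lower (median 0.20). In that setting the calls over all genes rose too, from 4429 to 6132 of 14349. The genes that were lower were ETV4, an ERK-responsive ETS factor (log2 fold change -0.53), in the first list and, among others, the early factor KLF2 (-1.67) in the second.

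Other phosphatases that can act on MAP kinases were counted in 2 lists, again beside the 30.9% of all genes called. Of 10 tested atypical DUSPs and STYX proteins, small enzymes without the kinase-binding domain and their inactive relatives, 4 were higher and 0 lower in M14A plate. DUSP14 rose from 9.91 ± 1.08 to 25.4 ± 5.16 FPKM (log2 change 1.26 with an SE of 0.16, adjusted p = 4.6e-04) and DUSP3 from 19.8 ± 0.283 to 35.9 ± 9.45 FPKM. DUSP22 rose from 4.20 ± 0.254 to 6.19 ± 0.994 FPKM, a call lost without any 1 of the HepaRG plate libraries (0.42 to 0.49). Of 8 other MAP kinase phosphatases, the p53-induced p38 phosphatase PPM1D rose from 2.24 ± 0.104 to 4.57 ± 0.675 FPKM and the receptor-type phosphatase PTPRR fell from 1.73 ± 0.135 to 0.502 ± 0.219 FPKM.

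In printed cells the targets divided. Of 21 immediate early genes, 5 were higher and 4 lower than in M14A plate (median -0.17), beside 17.7% of all genes called higher and 15.5% lower. FOS, a subunit of AP-1, stood at 6.76, 2.75 and 3.47 FPKM in M14A plate and at 83.6 and 68.5 FPKM in printed cells (log2 change 3.92 with an SE of 0.28, adjusted p = 3.6e-04), and FOSB rose from 0.141 ± 0.0675 to 8.34 ± 1.81 FPKM. BTG2 fell from 34.8 ± 10.2 to 10.6 ± 0.494 FPKM (log2 fold change -1.60). Of 15 ERK feedback inhibitors and output genes, 0 were higher and 4 lower (median -0.43), with 2 higher and 7 lower when M14A plate library 1 was left out. In that setting the calls over all genes rose from 4770 to 7911 of 14349. The cytokine LIF fell from 21.1 ± 5.72 to 8.42 ± 0.839 FPKM, the sprouty-related SPRED2 from 8.53 ± 2.27 to 3.37 ± 0.110 FPKM and SPRY4 from 6.65 ± 2.40 to 2.64 ± 0.0208 FPKM, the last a call lost without printed library 1 or 2 and with only the 2 groups in the fit. DUSP1, itself an early response gene, was lower in these libraries (-0.75).

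**Figure D5:**
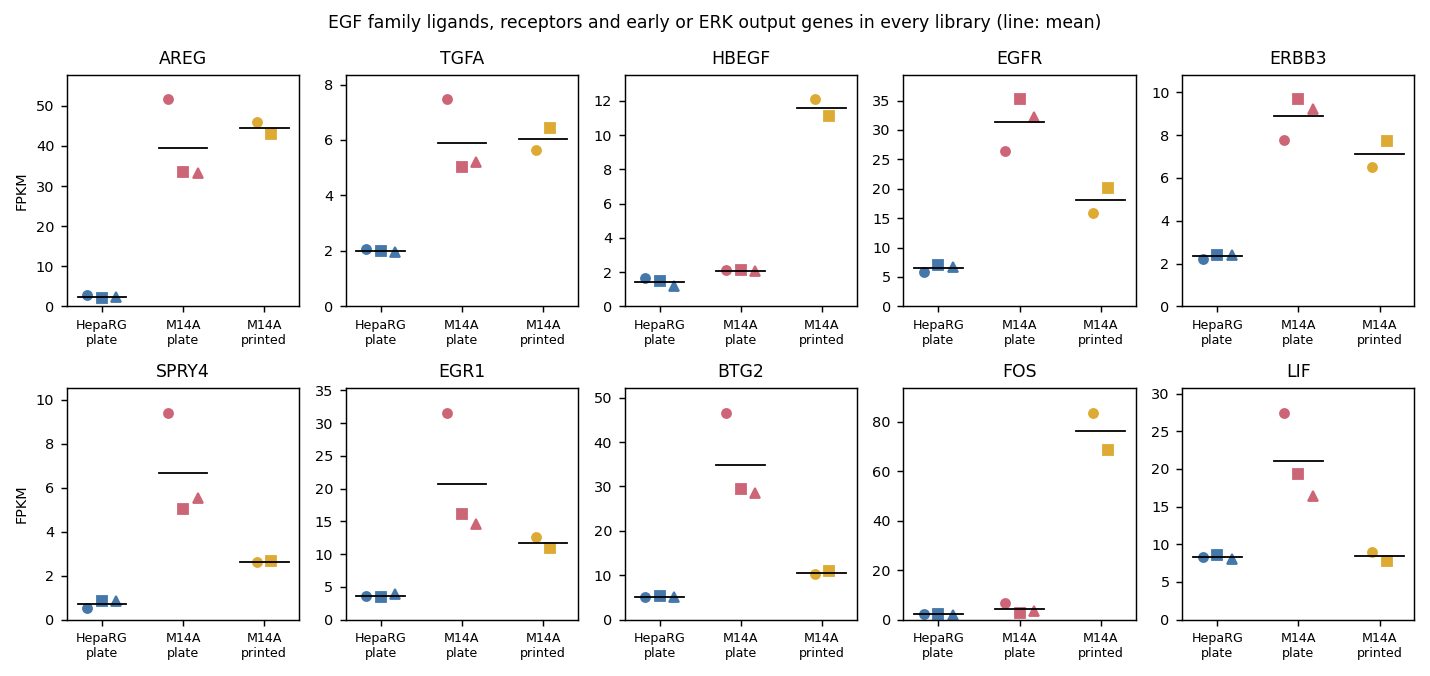
FPKM (vertical axis, from 0, own scale for each gene) of EGF family ligands and receptors and of early or ERK output genes in the 3 groups. Each symbol is 1 library, its shape the replicate number, the line the mean. AREG, EGFR and SPRY4 are higher in every M14A plate library than in every HepaRG plate library, and FOS and HBEGF are highest in the 2 printed libraries.

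Upstream in printed cells, counts are read beside the 33.2% of all genes called (17.7% higher and 15.5% lower). Of 10 ligands 1 was higher and 0 lower. It was HBEGF, a heparin-binding EGF receptor ligand, at 2.09, 2.10 and 2.04 FPKM in M14A plate and 12.1 and 11.1 FPKM in printed cells (log2 change 2.03 with an SE of 0.13, adjusted p = 3.4e-04). Of 12 receptors 0 were higher and 3 lower, IGF1R, INSR and EGFR, with EGFR falling from 31.3 ± 4.46 to 18 ± 3.02 FPKM, a call lost without printed library 1, with only the 2 groups in the fit and with the GC trend removed. Of 11 MAP kinases 3 were higher and 2 lower, of 6 MAP2 kinases 0 and 1, of 17 MAP3 kinases and RAF kinases 1 and 3, and of 14 RAS proteins and adaptors 3 and 1. Of 10 atypical DUSPs and STYX proteins 3 were higher and 1 lower, of 9 scaffolds and substrates 0 and 2, and of 9 MAP kinase-activated kinases and 8 other MAP kinase phosphatases 0 in either direction by limma. Without M14A plate library 1, where calls over all genes rose from 4770 to 7911, these last lists had 3 higher and 1 lower, and 2 higher and 0 lower. Leaving out that library also gave 2 higher and 0 lower ligands, 0 and 5 receptors, 3 and 1 MAP2 kinases, 3 and 7 MAP3 kinases and RAF kinases, 4 and 6 RAS proteins and adaptors, 5 and 2 atypical DUSPs and STYX proteins, and 0 and 6 scaffolds and substrates. DUSP23, the most abundant atypical member, rose from 138 ± 48.1 to 257 ± 65.9 FPKM, a call lost under 11 of the alternatives. The medians of these lists lay between -0.25 and 0.17, but over the scalings tried the lowest median of every one of the 12 lists in this comparison was below 0.

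For each gene called in either comparison, the other protein-coding genes with the most similar pattern were sought among 11305, by the root mean square difference of centred log2(FPKM + 1) over the 8 libraries, which share their depth and composition. RIMS3 and GUCD1 came closest to DUSP1 (0.059 and 0.075, where DUSP1 itself varied by 0.52 around its centre). GUCD1 ranged from 25.0 to 26.3 FPKM in the parental flasks, from 43.5 to 69.8 in the edited flasks and from 31.7 to 35.1 after printing. CYB5B came closest to DUSP6 (0.033), CFLAR, an inhibitor of caspase-8 activation, to DUSP16 (0.081), EMP1 to DUSP10 (0.098) and GNA12 to DUSP4 (0.089). RAB11FIP5 came closest to DUSP8 (0.064). The distance was largest for DUSP2, at 0.14 to the linker histone gene HIST1H1E. This scale compresses differences of weakly expressed genes such as DUSP6, so closeness on it is not likeness of fold change. CYB5B ranged from 6.09 to 6.23 FPKM in the parental flasks and from 10.3 to 13.8 in the edited flasks, a smaller proportional change than that of DUSP6. With 8 libraries in 3 groups many genes share a pattern, and nothing on common control follows from it.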

How the data were processed

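The values are FPKM as deposited by the authors, 1 column for each of 8 libraries, with the gene lengths used. Per the labels' protocols, RNA was taken into TRIzol, 1 µg entered each library, and the NEBNext Ultra RNA kit was used. Per the submitters' processing notes, the tools were featureCounts 1.5.0-p3 and HISAT2 2.0.5. What the sources used here leave out is the genome build, the options and whether counting used strand. Starts and ends of all 58735 genes equal those of GENCODE 29 on GRCh38. FPKM times gene length was a whole multiple of its value for 1 read, within 0.01, which gives the reads; the denominators used by the authors were 0.818 to 1.20 times these, so a change is relative to the bulk of genes. For a gene of 1 kb, 1 read is 0.0435 to 0.0747 FPKM.

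Groups came from sample titles, and 0 columns of per-sample values lacked a sample. Tests used limma 3.58.1 (R 4.3.3), two-sided, with moderated variances that follow a trend in mean expression, on log2(FPKM + 1) of 14349 genes, with 3 group means over all 8 libraries and 5 residual degrees of freedom. Replicate libraries differed beyond counting noise (chi-square per degree of freedom 2.69 to 69.3). The procedure was tested on simulated reads. Named genes are the 10 members, HNF4A and FOXM1, from each list up to 3 called genes with the largest change, and up to 2 genes of most similar pattern. ETV4, MAPK14, EGF and EREG were chosen after their values were seen, and not all genes that the rule selects are named. The members and lists were chosen with earlier results of these data known. Of 175 list entries in 12 lists, 142 were tested. A gene's GC content is taken as the middle value of its transcripts in GENCODE 29.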

Additional observations from a re-analysis of the deposited data

How the results depend on the processing

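Each result was recomputed under 23 alternatives, of which the removal of GC and length trends was chosen after seeing the data. In the comparison of lines, DUSP1, DUSP6, DUSP10 and DUSP16 kept their direction and call under every alternative that could test them (log2 fold change 0.87 to 1.22, 0.63 to 2.38, -1.48 to -1.18 and 0.83 to 1.17), and DUSP4 under 20 of 22 (-1.59 to -0.70). Of the 10 genes, 5 were called, with 4 to 5 called when 1 library was left out and 3 under a filter of 5 FPKM, which removes DUSP4 and DUSP6 from the test. In the printed comparison 4 were called, with 2 to 6 when 1 library was left out. The count was 2 with no filter and at a filter of 5 FPKM, 1 with only the 2 groups in the fit, and 1 at an adjusted p below 0.01. DUSP8 kept its call under 21 of 22 alternatives, DUSP16 under 20 of 23, DUSP1 under 18 of 23 and DUSP2 under 7 of 22, all in the direction reported. No member that was called changed sign under any of them.

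Signs turned as follows, and the cause was not tested. Between the lines, DUSP2 turned to -0.10 at equal FPKM totals, -0.055 at equal totals without mitochondrially encoded genes and -0.15 with the GC trend removed, and ranged from -0.13 to 0.13 when 1 library was left out. DUSP5 turned to -0.024 at equal totals and -0.053 with the GC trend removed, with a leave-one-out range of -0.21 to 0.37. DUSP8 turned to -0.11 and -0.050 at the 2 equal-total scalings and -0.012 with the GC trend removed, with a leave-one-out range of -0.093 to 0.20. MAP2K2 ranged from -0.0016 to 0.36 when 1 library was left out. In printed cells, equal totals with and without mitochondrially encoded genes gave -0.17 and -0.081 for DUSP6, -0.61 and -0.45 for DUSP9, -0.23 and -0.075 for DUSP10, -0.35 and -0.17 for PPP2R1A, and -0.57 and -0.40 for MAPKAPK2, and the first gave -0.048 for DUSP12 and -0.035 for MAPK12. Quantile scaling gave -0.0045 for DUSP9, -0.069 for PPP2R1A and -0.20 for MAPKAPK2. When 1 library was left out, DUSP9 ranged from -0.35 to 0.55, DUSP5 from -0.57 to 0.0030 and MAPKAPK2 from -0.022 to 0.38.

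Replicate numbers did not visibly pair the flask samples: deviations of same-numbered HepaRG plate and M14A plate libraries correlated at -0.071, 0.081 and -0.16. Those of same-numbered M14A plate and printed libraries correlated at 0.49 and 0.36, but M14A plate library 3 and printed library 2 also did, at 0.43. With 2 printed libraries the deviations are mirror images of each other, so pairing with the printed samples could not be decided. With the replicate number as a block, 5 members were called between the lines and 3 in printed cells, where DUSP2 was not (0.67, adjusted p = 0.061). Calls over all genes between the lines, 4429, rose to 5424 at equal totals, 6132 without M14A plate library 1 and 6236 with the GC trend removed, and fell to 2341 with the filter of 5 FPKM, 2544 at an adjusted p below 0.01 and 2819 to 2886 without 1 HepaRG plate library. In the printed comparison, from 4770, they rose to 7115 at equal totals, 7911 without M14A plate library 1 and 6445 with the GC trend removed, and fell to 2580 and 2818 without printed library 1 or 2, 2368 at an adjusted p below 0.01 and 2016 with only the 2 groups in the fit. At this depth DUSP6 rests on 15 to 20 reads in each HepaRG plate library.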
